A study of Mus musculus with 4 samples.

Results

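The genes described here are 45 genes of muscle: contractile proteins of the sarcomere, proteins of its M-band and Z-disc, the natriuretic peptides, and genes that couple nerve and membrane signals to contraction or supply its energy. They were taken as a fixed list of symbols. All 45 were found among the 18193 genes measured. Expression was read on 4 Affymetrix arrays, 1 for each condition, as MAS5 signals, which are intensities on a linear scale. The conditions were wild-type (wildtype) and *Hand2* mutant (Hand2 CAT/+; Wnt1-Cre) whole bodies at E11.5, and heads of the same genotypes at E12.5, all on a mixed C57BL/6J x ICR background. The mutants, called Hand2NC, carry a *Hand2* transgene under a ubiquitous promoter behind a floxed CAT cassette, which Cre under *Wnt1* control removes in the neural crest lineage. RNA of several embryos was pooled for each array. No difference therefore has a replicate check, and no p-value was computed.

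The sarcomere is the contractile unit of striated muscle, in which thick filaments of myosin slide along thin filaments of actin when calcium binds the troponin complex. Heart and skeletal muscle build it from paralogous proteins, and embryonic muscle of either kind also uses some proteins of the other. The heart beats and is rich in sarcomeres by midgestation, whereas skeletal muscle is then forming from the somites and, in the head, from cranial mesoderm. Skeletal muscle cells of the head are not themselves derived from the neural crest, although crest cells contribute the connective tissue around them.

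The 45 genes were placed in classes by general knowledge of where each is used, but with earlier results of these data known. The cardiac class holds 12 genes, the skeletal class 18 and the class shared by heart and by embryonic or slow skeletal muscle 14, while *Acta2*, the actin of smooth muscle and of early striated muscle, stood alone. Several cardiac genes also serve slow skeletal fibres in later life. Among them is *Myl2*, which was placed in the cardiac class while *Myl3*, also of ventricle and slow fibres, was placed in the shared class. Each gene was read from the probe set, among those naming that gene alone, that was brightest on average on the log2 scale over the 4 arrays. A gene was counted in a comparison when its signal reached the median of the array on either of the 2 arrays compared. Array medians ranged from 97.2 to 106.

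The arrays were alike in quality. The 3' to 5' ratio, which rises as RNA degrades, ranged from 1.36 to 1.48 for *Actb* and from 0.804 to 0.890 for *Gapdh*. The brightest *Hand2* probe set had signals of 1214 and 1244 in wild-type and Hand2NC at E11.5 and of 592 and 839 at E12.5. The second of its 3 probe sets had signals of 67.1 and 314 in wild-type and Hand2NC at E11.5 and of 33.4 and 706 at E12.5. The Hand2NC head array lacked Y-linked signal, with *Eif2s3y* at 14.4 against 956 in the wild-type head. The labels name the whole body as the E11.5 tissue, while a legend of the study names heads. On those arrays, 12 of 12 cardiac genes in the wild-type and 11 of 12 in Hand2NC lay at or above the array median. In the E12.5 heads 3 and 2 of them did.

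The first comparison set the E12.5 head, a tissue without a heart, against the E11.5 whole body. Most cardiac and shared genes were lower in the head, many cardiac ones to signals under the array median, and most skeletal genes changed less than 2-fold. In the wild-type pair of arrays, 10 of 12 cardiac genes, 11 of 14 shared genes and 2 of the 13 skeletal genes that passed the signal filter were at least 2-fold lower in the head. Among all 12061 genes that passed it, 2.61% were lower by this much. None of the 40 muscle genes that passed it, 0 of 40, was 2-fold higher, against 4.45% of all genes. In the Hand2NC pair, which shares no array with the first, 10 of 11 cardiac, 11 of 14 shared and 2 of 13 skeletal genes were at least 2-fold lower, against 2.24% of all genes. Again 0 of the 39 that passed the filter were 2-fold higher, against 2.87% of all genes.

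Over all members of a class, filtered or not, the median log2 change in the wild-type pair was -3.37 for the cardiac class, -1.51 for the shared class and -0.33 for the skeletal class, and 0.01 over all 18193 genes. In the Hand2NC pair the medians were -2.54, -1.58 and -0.50, and 0.04 over all genes. With signals under the array median set to it, the cardiac medians were -1.85 and -1.75 in the wild-type and Hand2NC pairs, the shared medians stayed at -1.51 and -1.58, and the skeletal medians were -0.28 and -0.44. Most of the distance between the cardiac and the shared medians thus lay in head signals too dim to measure. Of 38 members that passed the filter in both pairs, 38 went the same way in both, and 21 were at least 2-fold lower in both. Over all 11803 genes that passed it in both pairs, 9240 went the same way and 203 were at least 2-fold lower in both. Stage and tissue differ together between these arrays and cannot be told apart. In the Hand2NC pair Y-linked signal differs with them, with *Eif2s3y* at 853 in the whole body and 14.4 in the head, and cannot be told apart from them. In such bulk tissue, fewer cells of a type and less RNA per cell cannot be told apart either.

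Other tissues moved with this comparison too. Of 9 liver genes measured 7 were at least 2-fold lower in the head in each pair, with *Alb* at 9010 and 8530 in the whole bodies and 29.1 and 33.7 in the heads. Among all genes that passed the filter 2.61% and 2.24% were lower by this much in the wild-type and Hand2NC pairs. The summed signal of the liver list was 40276 and 39381 in the whole bodies and 18070 and 14630 in the heads, where *Ttr*, which the choroid plexus also makes, gave most of it. Of 10 neuronal genes 7 were at least 2-fold higher in the head in the wild-type pair and 3 in the Hand2NC pair. The shares over all genes were 4.45% and 2.87%. The summed signal of the neuronal genes was 21957 and 21514 in the whole bodies and 40307 and 36216 in the heads. The part of these tissues in the change of the skeletal genes was not tested.

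**Figure D1:**
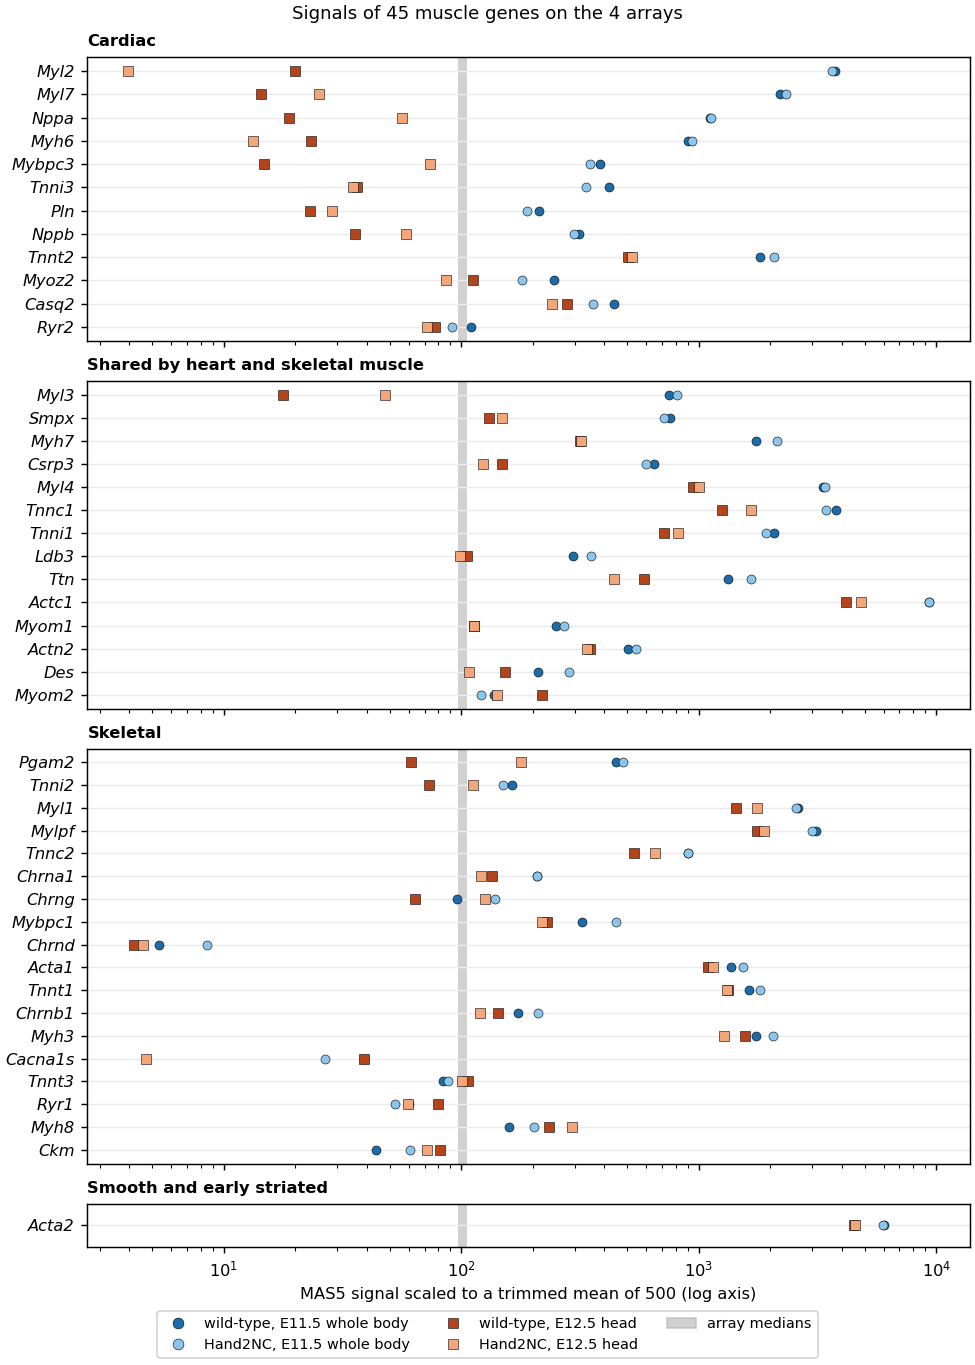
Signals of the 45 muscle genes on each array, on a log axis, with 1 row per gene and 1 point per array (blue circles for E11.5 whole body and brown squares for E12.5 head, dark for wild-type and pale for Hand2NC). The grey band spans the 4 array medians, 97.2 to 106. Most cardiac genes cross it between whole body and head, and the bright skeletal genes do not.

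The myosin genes of the thick filament divided by class. *Myl2*, the regulatory light chain of ventricle and slow fibres, had signals of 3739 in the wild-type and 3646 in the Hand2NC whole body and of 19.9 and 3.93 in the heads. Its log2 change was -7.55 in the wild-type pair and -9.86 in the Hand2NC pair. The head signals are far below the array medians, where a ratio is imprecise, and with signals under it set to the median *Myl2* was still 35.3-fold and 35.9-fold lower. *Myl7*, the atrial regulatory light chain, had signals of 2201 and 2329 in the whole bodies and 14.3 and 25.1 in the heads. The skeletal light chain of the same kind, *Mylpf*, had 3124 and 3000 in the whole bodies and 1764 and 1887 in the heads. The head signals of *Mylpf* were thus 56.4% and 62.9% of its whole-body signals. Those of *Myl7* were too dim for a percentage, and set to the array median they were 20.8-fold and 22.9-fold lower than in the whole bodies.

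*Myh6*, the alpha heavy chain of the heart, had signals of 896 and 937 in the whole bodies and 23.2 and 13.3 in the heads. *Myh7*, the beta heavy chain, which embryonic and slow skeletal fibres also use, had 1738 and 2135 in the whole bodies and 317 and 320 in the heads. Its head arrays stayed above the median, and its log2 changes of -2.45 and -2.74 were smaller than those of *Myh6*, -5.27 and -6.14. A probe set that the annotation gives to both genes, and that was left out, had log2 changes of -3.13 and -3.24. The embryonic skeletal heavy chain *Myh3* had 1737 and 2050 in the whole bodies and 1562 and 1273 in the heads. The perinatal heavy chain *Myh8* was the opposite in direction, with 159 and 203 in the whole bodies and 233 and 291 in the heads, log2 changes of 0.55 and 0.52 that are under the cutoff.

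Among the essential light chains, *Myl3*, of ventricle and slow fibres, had signals of 749 and 809 in the whole bodies and 17.8 and 47.8 in the heads. Its other probe sets gave log2 changes of -5.65 and -7.32 in the wild-type pair, next to -5.40 for the one used. *Myl4*, the light chain of the atrium and of embryonic skeletal muscle, had 3335 and 3409 in the whole bodies and 943 and 1005 in the heads. The fast skeletal light chain *Myl1* had 2611 and 2565 in the whole bodies and 1431 and 1760 in the heads. The head signals were thus 28.3% and 29.5% of the whole-body signals for *Myl4* and 54.8% and 68.6% for *Myl1*. The dim head signals of *Myl3*, set to the array median, were 7.08-fold and 7.96-fold lower. Of the myosin binding proteins, which stabilise the thick filament, cardiac *Mybpc3* had signals of 384 and 348 in the whole bodies and 14.7 and 74.0 in the heads, log2 changes of -4.71 and -2.23. Skeletal *Mybpc1* had 322 and 449 in the whole bodies and 229 and 219 in the heads, log2 changes of -0.49 and -1.03.

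Troponin genes of the thin filament showed the same order of classes. *Tnni3*, the inhibitory subunit of the heart, had signals of 418 and 334 in the whole bodies and 36.4 and 34.9 in the heads. *Tnni1*, the inhibitory subunit of slow fibres and of the embryonic heart, had 2066 and 1911 in the whole bodies and 716 and 821 in the heads. Fast skeletal *Tnni2* was dimmer, with 163 and 149 in the whole bodies and 72.9 and 112 in the heads. The 3 log2 changes of this family in the wild-type pair were -3.52, -1.53 and -1.16, and that of *Tnni2* was -0.62 with dim values raised to the median, within the cutoff.

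*Tnnt2*, the tropomyosin-binding subunit of the heart, had signals of 1807 and 2071 in the whole bodies and 506 and 521 in the heads, and a second bright probe set agreed in direction, at -2.33 and -2.28. Embryonic skeletal muscle also uses *Tnnt2*, and its head signals stayed well above the median. Slow skeletal *Tnnt1* had 1621 and 1807 in the whole bodies and 1333 and 1313 in the heads. Fast skeletal *Tnnt3* was near the array medians on every array, from 83.5 to 107. The calcium-binding subunit of heart and slow fibres, *Tnnc1*, had 3796 and 3449 in the whole bodies and 1256 and 1662 in the heads, log2 changes of -1.60 and -1.05. Fast skeletal *Tnnc2* had 897 and 904 in the whole bodies and 532 and 655 in the heads, log2 changes of -0.75 and -0.47. In each of these families the cardiac or shared genes were lower by more than the skeletal ones in both pairs.

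Among the actins, *Actc1* was lower in the head by more than *Acta1* or *Acta2* in both pairs. *Actc1*, the actin of the heart and of embryonic skeletal muscle, had signals of 9362 and 9367 in the whole bodies and 4155 and 4841 in the heads. Its head signals were thus 44.4% and 51.7% of its whole-body signals. The log2 change was -1.17 in the wild-type pair and -0.95, within the cutoff, in the Hand2NC pair. Skeletal *Acta1* had 1361 and 1532 in the whole bodies and 1094 and 1152 in the heads. *Acta2*, read from a cross-binding probe set (_s_at), had 6028 and 5940 in the whole bodies and 4522 and 4533 in the heads, log2 changes of -0.41 and -0.39. The smooth muscle genes *Myl9* (-0.86 and -0.55) and *Tagln*, with 1139 and 981 in the whole bodies and 569 and 641 in the heads, were also lower. Of 6 and 5 smooth muscle genes that passed the filter in the respective pairs, 2 and 0 were at least 2-fold lower. The shares over all genes were 2.61% and 2.24%.

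**Figure D2:**
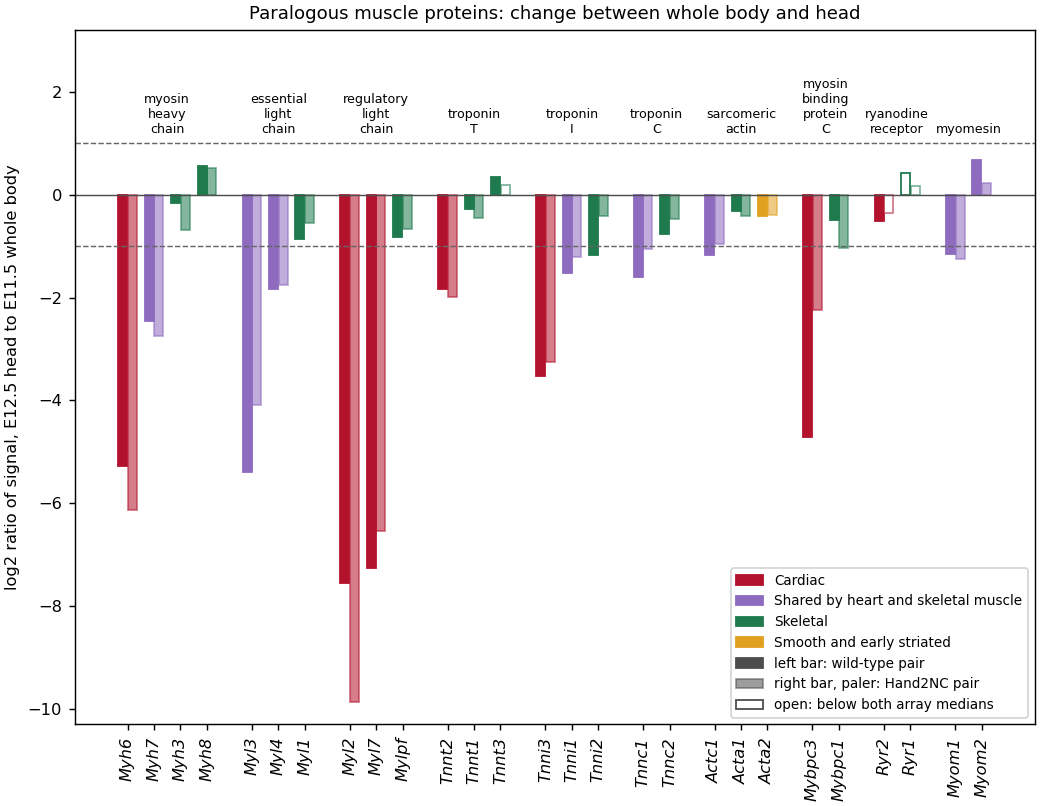
Log2 ratio of E12.5 head to E11.5 whole body for paralogous muscle genes, grouped by protein family, with 1 bar for the wild-type pair of arrays and a paler bar for the Hand2NC pair. Dashed lines mark the 2-fold cutoff. The red cardiac bars reach from -0.50 to -7.55 in the wild-type pair, and the green skeletal bars lie within the cutoff except for *Tnni2* and, in the Hand2NC pair, *Mybpc1*.

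Genes of the Z-disc and M-band, which anchor thin and thick filaments, were mostly lower in the head by moderate amounts. *Ttn*, the giant spring protein that spans from Z-disc to M-band, had signals of 1330 and 1660 in the whole bodies and 585 and 440 in the heads. Its mean over 6 probe sets had a log2 change of -0.74 in the wild-type pair, within the cutoff. *Csrp3*, a Z-disc LIM protein, had 650 and 600 in the whole bodies and 149 and 123 in the heads. *Csrp3* was clear of the cutoff in both pairs. *Ttn*, at -1.18 in the wild-type and -1.92 in the Hand2NC pair for the probe set used, was just past it in the first. *Ldb3*, another Z-disc protein, had 296 and 350 in the whole bodies and 106 and 98.6 in the heads. The Z-disc crosslinker *Actn2* had 503 and 546 in the whole bodies and 349 and 340 in the heads, within the cutoff. *Myoz2*, a calcineurin-binding Z-disc protein of heart and slow fibres, had 246 and 180 in the whole bodies and 112 and 85.9 in the heads. Its log2 changes of -1.13 and -1.06 were just past the cutoff, and the second was -0.82 with the dim value set to the median.

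The small protein gene *Smpx*, of striated muscle, was clearly lower, with 757 and 710 in the whole bodies and 131 and 148 in the heads. *Des*, the muscle intermediate filament, had 210 and 283 in the whole bodies and 153 and 108 in the heads. Its log2 change was -0.45 in the wild-type and -1.39 in the Hand2NC pair. The M-band genes parted in the probe sets used. *Myom1* had 251 and 270 in the whole bodies and 113 and 113 in the heads, log2 changes of -1.15 and -1.25, whereas *Myom2* had 138 and 121 in the whole bodies and 219 and 141 in the heads, log2 changes of 0.67 and 0.22. The probe set used for *Myom2* is a cross-binding one (_x_at). Its other probe sets failed the filter, with 0.81, -0.02 and 0.58 in the wild-type pair. Without the cross-binding probe sets, or with its probe sets averaged, *Myom2* failed the filter in that pair. Of the genes that passed the filter in both pairs, *Myom2* and *Myh8* had a head signal above that of the whole body in each.

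The natriuretic peptides, hormones secreted by heart muscle, were near background in the heads. *Nppa* had signals of 1119 and 1128 in the whole bodies and 18.8 and 56.2 in the heads. *Nppb* had 312 and 299 in the whole bodies and 35.6 and 58.7 in the heads. With head signals set to the array median, the heads were 10.6-fold and 11.1-fold lower for *Nppa* and 2.95-fold and 2.94-fold lower for *Nppb*.

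Calcium handling genes of the heart did not move as a block. *Pln*, the inhibitor of the calcium pump of the sarcoplasmic reticulum, had signals of 213 and 189 in the whole bodies and 22.9 and 28.6 in the heads, and its other probe sets had -4.86 and -3.35 in the wild-type pair beside -3.21. In the Hand2NC pair the log2 change of *Pln* was -2.73, and -0.90 with the dim value set to the median. Its other probe sets had -6.18 and -5.23 in that pair, with dim values left as they were. *Casq2*, the calcium store protein of cardiac and slow muscle, had 440 and 358 in the whole bodies and 279 and 242 in the heads, within the cutoff. The cardiac calcium release channel *Ryr2* was near the array medians, with 109 and 91.8 in the whole bodies and 77.3 and 71.6 in the heads. *Casq2* and *Ryr2* were the cardiac genes of the wild-type pair that did not fall 2-fold. The probe set used for *Casq2* is cross-binding (_s_at). *Ryr2* had -0.05 in that pair with the dim value set to the median. The skeletal release channel *Ryr1* and its voltage sensor *Cacna1s* lay below the median on all arrays.

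Genes of the nerve-muscle synapse changed little where they could be read. The alpha subunit gene of the acetylcholine receptor, *Chrna1*, had signals of 207 and 208 in the whole bodies and 135 and 122 in the heads. *Chrnb1*, the beta subunit gene, had 173 and 209 in the whole bodies and 143 and 119 in the heads. The fetal gamma subunit gene *Chrng* had 95.8 and 138 in the whole bodies and 64.1 and 126 in the heads, and the delta subunit gene *Chrnd* lay between 4.19 and 8.50. None of these genes passed the cutoff.

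*Pgam2*, the muscle form of a glycolytic enzyme, departed from the other genes placed in the skeletal class. Its signals were 447 and 478 in the whole bodies and 61.5 and 179 in the heads, log2 changes of -2.86 and -1.42. In the skeletal class as drawn here it was the gene at least 2-fold lower in both pairs. With dim values raised to the median it was 4.22-fold and 2.68-fold lower. A stricter form of the skeletal class, also tried, left *Pgam2* out. The lowest change in that form was -1.16 among genes that passed the filter in the wild-type pair. Muscle creatine kinase, *Ckm*, lay below the medians on all arrays, and its pair of probe sets disagreed, at 0.89 and -0.97 in the wild-type pair.

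**Figure D3:**
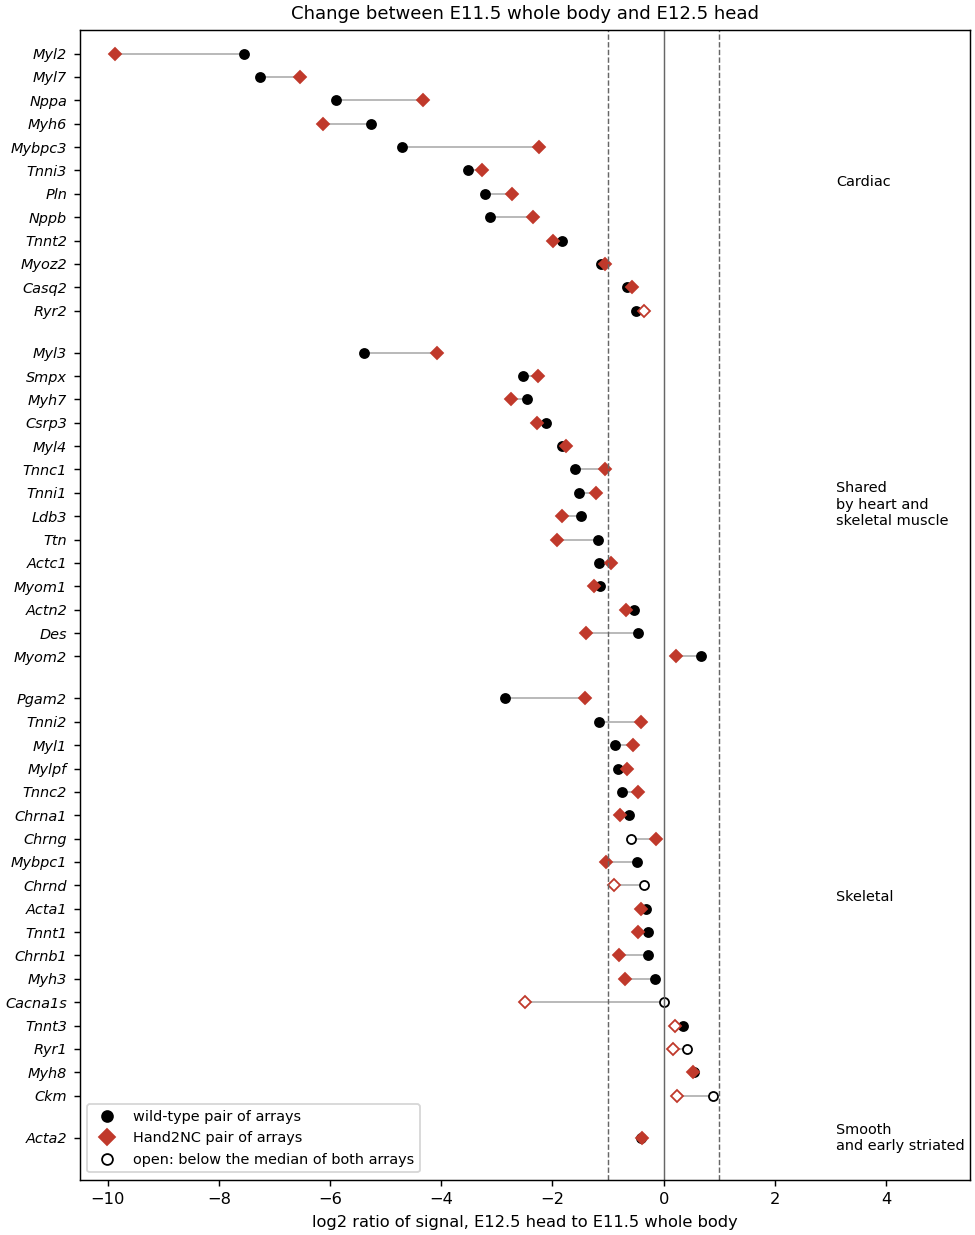
Log2 ratio of E12.5 head to E11.5 whole body for each of the 45 genes, in the wild-type (black circles) and the Hand2NC (red diamonds) pair of arrays, sorted within class. Open symbols lie below the median of both arrays, and dashed lines mark the 2-fold cutoff. The class medians in the wild-type pair are -3.37, -1.51 and -0.33 from top to bottom for the cardiac, shared and skeletal genes.

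Genes that lie side by side on a chromosome did not always move alike. *Tnnt1* and *Tnni3* are adjacent protein-coding genes on chromosome 7, and their log2 changes in the wild-type pair were -0.28 and -3.52. *Myh6* and *Myh7* are adjacent on chromosome 14, with -5.27 and -2.45. *Nppb* and *Nppa*, adjacent on chromosome 4, were both far lower, with -3.13 and -5.90. *Pgam2* and *Myl7*, with 3 protein-coding genes between them on chromosome 11, had -2.86 and -7.26.

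Further muscle genes were taken from lists compiled from general knowledge, also with earlier results of these data known. For all genes that passed the filter, 2.61% were at least 2-fold lower and 4.45% higher in the wild-type pair. In the Hand2NC pair the shares were 2.24% and 2.87%. Of 23 other skeletal muscle genes 14 passed the filter in the wild-type pair, of which 2, *Casq1* (-1.16) and *Eno3* (-1.12), were at least 2-fold lower and 0 higher. *Casq1* had -0.43 with dim values set to the median. In the Hand2NC pair 0 of 13 passed the cutoff. Of 16 other heart muscle genes measured, 11 passed the filter in the wild-type pair and 1, *Ankrd1*, a stress-responsive nuclear and sarcomeric protein, was at least 2-fold lower (-3.66). *Ankrd1* (-3.41), *Tmod1* (-1.20) and *Fhl2* (-1.03) were so in the Hand2NC pair. Of 13 other genes of striated muscle in general 5 were at least 2-fold lower in the wild-type pair, with *Trdn*, a junctional protein of the sarcoplasmic reticulum, at -2.37. With dim values set to the median *Trdn* had -0.46, and of the 5 only *Cox6a2*, a subunit of cytochrome oxidase in striated muscle, stayed past the cutoff. Among cardiac transcription factors 3 of 6 were at least 2-fold lower, *Gata6* (-3.02), *Tbx20* (-1.49) and *Tbx5* (-1.39), of which the last 2 were -0.65 and -0.79 with dim values set to the median. Skeletal myogenic regulators were mixed, with *Myog* at -0.89 and *Myod1* at -0.26, and 2 of 12 at least 2-fold lower, *Tcf21* (-3.58) and *Myf5* (-1.24, or -0.86 with the dim value set to the median), and 1 at least 2-fold higher, *Pax7* (1.12). In the Hand2NC pair *Pax7* had 0.16, and 0 of 12 regulators were at least 2-fold higher.

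Upstream sequence was available for 41 of the 45 genes, from 250 bases before to 50 after the annotated start (RefSeq, GRCm38.p6). Windows are shown for 6 genes chosen after their values were seen: *Nppa* and *Nppb* as adjacent genes that fell together, *Myl7* and *Mylpf* as paralogues that did not, *Actc1* as a shared gene that was lower in the heads but stayed bright there, and *Pgam2* as the skeletal gene that fell. Each is printed 5' to 3' on the strand of the gene. Capitals mark a CArG box, the site that serum response factor binds, a MEF2 site, the sequence TATAAA, or the E-box CAGCTG, each searched on both strands, and none of the marked sites overlap.
Nppa (chr4:148000472-148000771, plus strand): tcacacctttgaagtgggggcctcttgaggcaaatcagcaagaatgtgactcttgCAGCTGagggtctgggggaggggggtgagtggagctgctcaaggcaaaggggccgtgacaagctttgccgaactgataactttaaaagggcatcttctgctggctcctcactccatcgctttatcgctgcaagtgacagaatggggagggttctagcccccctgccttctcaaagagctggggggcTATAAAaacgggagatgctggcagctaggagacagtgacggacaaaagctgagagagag
Nppb (chr4:147985650-147985949, plus strand): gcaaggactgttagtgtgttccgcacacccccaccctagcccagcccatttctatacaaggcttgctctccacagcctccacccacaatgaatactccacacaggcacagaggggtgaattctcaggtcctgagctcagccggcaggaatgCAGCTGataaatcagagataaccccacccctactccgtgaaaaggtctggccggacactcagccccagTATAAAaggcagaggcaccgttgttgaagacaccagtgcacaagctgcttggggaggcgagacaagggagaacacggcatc
Myl7 (chr11:5898733-5899032, minus strand): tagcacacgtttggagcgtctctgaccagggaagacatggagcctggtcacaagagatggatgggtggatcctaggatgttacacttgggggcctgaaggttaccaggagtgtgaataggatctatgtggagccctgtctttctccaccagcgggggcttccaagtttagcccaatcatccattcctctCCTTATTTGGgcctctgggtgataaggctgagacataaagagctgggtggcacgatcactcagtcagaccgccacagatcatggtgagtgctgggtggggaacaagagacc
Actc1 (chr2:114052826-114053125, minus strand): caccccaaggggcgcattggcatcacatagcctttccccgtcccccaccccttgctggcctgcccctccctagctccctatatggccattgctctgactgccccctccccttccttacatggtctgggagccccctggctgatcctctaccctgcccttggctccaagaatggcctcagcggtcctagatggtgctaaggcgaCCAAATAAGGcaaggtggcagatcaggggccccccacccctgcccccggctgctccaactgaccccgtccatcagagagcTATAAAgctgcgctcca
Mylpf (chr7:127211358-127211657, plus strand): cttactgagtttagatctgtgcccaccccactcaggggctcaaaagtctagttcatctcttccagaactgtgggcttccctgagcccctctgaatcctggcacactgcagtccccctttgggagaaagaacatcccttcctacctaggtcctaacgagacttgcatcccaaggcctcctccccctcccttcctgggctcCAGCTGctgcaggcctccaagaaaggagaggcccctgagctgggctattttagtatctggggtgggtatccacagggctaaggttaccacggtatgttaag
Pgam2 (chr11:5803747-5804046, minus strand): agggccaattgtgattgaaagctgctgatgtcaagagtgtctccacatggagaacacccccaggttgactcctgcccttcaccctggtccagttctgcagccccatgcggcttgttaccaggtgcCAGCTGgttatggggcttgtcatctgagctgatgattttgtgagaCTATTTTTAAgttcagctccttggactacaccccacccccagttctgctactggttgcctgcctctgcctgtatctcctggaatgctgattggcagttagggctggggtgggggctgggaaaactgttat
The CArG boxes of *Myl7* and *Actc1* begin 61 and 47 bases before the start. The E-box begins 195 bases before the start in *Nppa*, 99 in *Nppb*, 51 in *Mylpf* and 125 in *Pgam2*, whose MEF2 site begins 80 bases before it. The TATAAA of *Nppb* begins 31 bases and that of *Nppa* 9 bases before the start, and that of *Actc1* lies after it.

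CAGCTG was in 8 of 14 windows of cardiac genes, 9 of 15 of skeletal genes and 3 of 17 of shared genes, and in 16.3% of all 32851 windows. The CArG box was in 1, 1 and 5 of these windows in the same order, and in 1.63% of all. The MEF2 site was in 3, 2 and 1 of them, and in 3.19% of all. TATAAA was in 5, 6 and 1 of them, and in 13.6% of all, and AGATAA, a sequence GATA factors bind, was in 4, 1 and 2, and in 11.2% of all. CATTCC, the core that TEAD factors bind, was in 4, 5 and 4 of them, and in 14.7% of all. Windows of a gene with several starts share sequence. The E-box thus had a similar share in windows of cardiac genes (57.1%) and of skeletal genes (60.0%).

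The second comparison set Hand2NC against wild-type whole bodies at E11.5, to ask whether *Hand2* overexpression in the neural crest moved muscle genes. Of 40 that passed the filter 0 were 2-fold higher or lower, against 0.177% and 0.269% of all 11886 genes. With a lower cutoff, a log2 change of 0.32 in size, 4 of 40 (10%) were higher, against 6.61% of all genes, and 2 of 40 (5%) were lower, against 5.75%. The 4 were *Chrng* (log2 change 0.53), *Mybpc1* (0.48), *Des* (0.43) and *Myh8* (0.35), and the 2 were *Myoz2* (-0.45) and *Tnni3* (-0.33). *Ttn* lay just inside this cutoff, and its other probe sets that passed the filter had -0.11 and 0.19. Of the further skeletal muscle genes *Stac3*, which couples the voltage sensor to calcium release, had 166 in the wild-type and 67.5 in Hand2NC. The Hand2NC signal of *Stac3* lies below the array median. With that signal set to the median, the log2 change was -0.71, within the 2-fold cutoff. Between genotypes in the E12.5 heads, *Stac3* had a log2 change of 0.15. Of the myogenic regulators *Myf5* was at least 2-fold higher at E11.5, with 192 in the wild-type and 421 in Hand2NC.

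The class medians at E11.5 were -0.10 for cardiac, 0.07 for shared and 0.13 for skeletal genes, and -0.02 over all genes. The 5 brightest cardiac genes all lay within the lower cutoff. *Myl2* had a log2 change of -0.04, *Myl7* of 0.08, *Tnnt2* of 0.20, *Nppa* of 0.01 and *Myh6* of 0.06. In the shared class *Actc1* had 0.00 and *Tnnc1* -0.14, and in the skeletal class *Mylpf* had -0.06, *Acta1* 0.17 and *Tnnt1* 0.16. The changes of cardiac genes ranged from -0.45 to 0.20, those of shared genes from -0.19 to 0.43 and those of skeletal genes that passed the filter from -0.13 to 0.53.

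**Figure D4:**
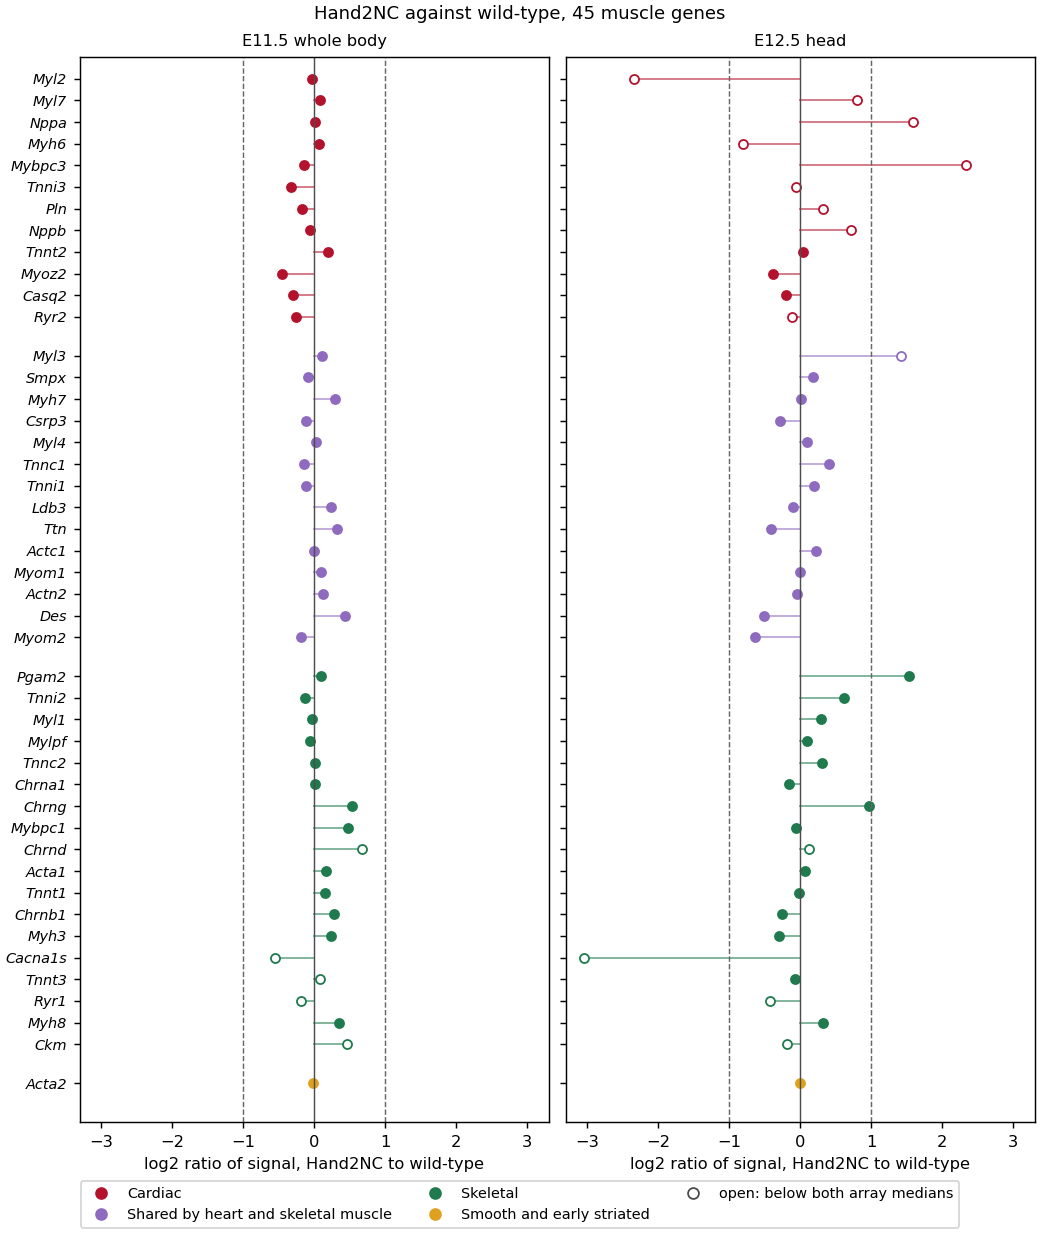
Log2 ratio of Hand2NC to wild-type for each of the 45 genes at E11.5 (left, whole body) and E12.5 (right, head), coloured by class. Open points lie below the median of both arrays, and dashed lines mark the 2-fold cutoff. Among filled points, *Pgam2* at 1.54 in the head lies past it and *Chrng* at 0.98 lies just inside it.

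In the E12.5 heads, Hand2NC and wild-type again had similar signals for most muscle genes. Of 31 genes that passed the filter, 1 (3.23%) was 2-fold higher and 0 were 2-fold lower, against 0.203% and 0.195% of all 11815 genes. The gene was *Pgam2*, with 61.5 in the wild-type head and 179 in the Hand2NC head, a log2 change of 1.54. The wild-type signal lies below the array median, and the change was 0.75 with that signal set to it, within the cutoff. Its wild-type and Hand2NC whole-body signals differed by a log2 change of 0.10.

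At the lower cutoff, 5 of 31 genes (16.1%) were higher in Hand2NC heads, against 5.10% of all genes, and 4 of 31 (12.9%) were lower, against 6.64%. Beside *Pgam2*, the higher ones were *Chrng* (0.98), *Tnni2* (0.62), *Tnnc1* (0.40) and *Myh8*, which lay at the cutoff itself. *Chrng* had 64.1 in the wild-type and 126 in the Hand2NC head, passed the 2-fold cutoff with the arrays centred on their medians (1.03), and had 0.25 with dim values set to the median. *Tnni2* had 0.08 with dim values set to the median. The lower ones were *Myom2* (-0.64), *Des* (-0.51), *Ttn* (-0.41) and *Myoz2* (-0.39). With its dim Hand2NC value set to the median, *Myoz2* had -0.14. Another *Ttn* probe set that passed the filter went the other way, at 0.21. The value of *Myom2* comes from a cross-binding probe set (_x_at), and its other probe sets lay below the medians of both head arrays.

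Of the skeletal genes that passed the filter in the heads 4 of 14 were past the lower cutoff upward and 0 downward, against 5.10% and 6.64% of all genes. With dim values set to the median 2 of the 4 remained, *Pgam2* and *Myh8*. The bright ones moved little and not all one way. *Myl1* had a log2 change of 0.30, *Tnnc2* of 0.30, *Mylpf* of 0.10 and *Acta1* of 0.07, while *Myh3* had -0.29 and *Chrnb1* -0.26. The class medians over all members were -0.01 for cardiac, 0.01 for shared and 0.03 for skeletal genes, and 0.00 over all genes. *Chrng* and *Myh8* reached the lower cutoff at both stages, as did the muscle determination gene *Myf5*, at 1.13 at each stage, or 0.74 in the heads with the dim value set to the median. *Myoz2* was past it downward at both stages, but not in the heads with the dim value set to the median (-0.14). In the probe set used, *Des* was past it upward at E11.5 and downward at E12.5. The neuronal list had a median of -0.15 in this comparison, with 9 of 10 genes below 0, and its part in these values was not tested. The absence of Y-linked signal in the Hand2NC head goes with genotype on these arrays and cannot be told apart from it.

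Cardiac genes were mostly too dim to compare in the heads, where 9 of 12 lay below the median of both arrays. *Mybpc3* had signals of 14.7 and 74.0, *Nppa* of 18.8 and 56.2 and *Myl2* of 19.9 and 3.93 in wild-type and Hand2NC heads, ratios in opposite directions at signals under the median. The shared gene *Myl3*, also below it, had 17.8 and 47.8. Of the cardiac genes that passed the filter, *Tnnt2* had a log2 change of 0.04, *Casq2* of -0.20 and *Myoz2* of -0.39, or -0.14 with the dim value set to the median.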

How the data were processed

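RNA was extracted from wild-type and Hand2NC embryos, pooled and hybridised to Affymetrix GeneChip mouse genome arrays with 1 colour, 1 array per condition. The authors produced the deposited values, linear intensities, with MAS5 (version not given in the sources used here), for 45101 probe sets without detection calls. The number of arrays limits the precision.

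The 64 control probe sets were left out, signals were brought to a common 2% trimmed mean, 500, on every array and put on the log2 scale. Names came from the platform annotation, updated through RefSeq gene identifiers. Of the remaining probe sets 34945 had 1 symbol, 932 had several and 9160 none, and only the first were used. Where a gene had several probe sets, the brightest by mean log2 signal stood for it. The members, classes and gene lists were chosen with earlier results of these data known. Every member is accounted for. Other genes were named where they were 2-fold apart between genotypes, as up to 4 of the largest changes between tissues on each list, or as checks of the labels. *Myog*, *Myod1* and *Ttr* were named after their values were seen. The counting was checked on simulated data. Raising dim values means setting signals below an array's median to it. The software was Python 3.11.15 with pandas 2.3.3, numpy 2.4.6 and matplotlib 3.10.9.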

Additional observations from a re-analysis of the deposited data

Results flagged for a closer look

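*Des*, the intermediate filament gene of muscle, differed between genotypes in opposite directions at the 2 stages in the probe set used. Its log2 change in Hand2NC was 0.43 in E11.5 whole bodies and -0.51 in E12.5 heads, both past 0.32 in size and within the 2-fold cutoff. The other probe set of *Des* lay below the array medians on every array. It had 1.37 at E11.5 and 0.42 at E12.5, upward at both stages. The difference between the stages was not tested, since each condition has 1 array.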

How the results depend on the processing

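No called change of a member turned direction under the alternatives run, which were 3 scalings, 3 filters, raising dim values, averaging the probe sets of a gene, dropping cross-binding probe sets (_x_at and _s_at), and 2 regroupings of the classes. Median centring moved the median of all genes by -0.12 in the wild-type pair of tissues. It gave 388 genes at least 2-fold higher and 396 lower there, against 537 and 315, 15 and 37 at E11.5 against 21 and 32, and 33 and 21 at E12.5 against 24 and 23. With both arrays required at or above their medians, cardiac genes at least 2-fold lower in the head numbered 2 in the wild-type and 1 in the Hand2NC pair, because most head signals fail that filter, and skeletal ones 0 in the wild-type pair. With the brighter array at its 75th percentile they numbered 5 and 5 among cardiac genes and 0 and 0 among skeletal ones. Strict classes gave 6 and 6 cardiac and 1 and 1 skeletal genes, with cardiac medians of -4.71 and -3.26, and a wide cardiac class gave 17 and 16 genes and a median of -2.45 in the wild-type pair. Raising dim values gave cardiac medians of -1.85 and -1.75 and left 1 skeletal gene lower in the wild-type pair, as did the mean over probe sets.

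Between genotypes at E11.5, the mean over probe sets put 1 gene, *Myh6*, past 2-fold, through a dim probe set (-2.30), and the 75th percentile filter left 0 genes higher and 0 lower at the lower cutoff. At E12.5 the count past 2-fold was 2 with median centring, 2 with quantile normalization, 2 with the mean over probe sets, 6 with no filter, and 0 with raised dim values, with both arrays above their medians or with the 75th percentile filter. At the lower cutoff, 10 genes were higher and 8 lower with no filter, 2 were higher with both arrays above their medians, 3 were higher with raised dim values, 1 was higher and 1 lower with the 75th percentile filter, and 1 was lower with the mean over probe sets. The cardiac median at E12.5, which rests on dim genes, was 0.72 with strict classes and 0.35 with averaged probe sets. Where no cause is given, the cause was not tested.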

Other observations

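Other probe sets of the muscle genes give a view of how well a value holds within an array. The 45 genes have 30 further probe sets, of which 9 passed the signal filter in the wild-type pair of tissues. All 9 went the same way as the brightest probe set of their gene, and of 8 that belong to genes at least 2-fold lower 6 were also at least 2-fold lower. In the Hand2NC pair 9 of 9 went the same way and 8 of 9 were past the cutoff. Between genotypes, where changes are small, 6 of 9 went the same way at E11.5 and 1 of 3 at E12.5.

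The wild-type and Hand2NC pairs of tissues differed from each other more for cardiac than for other muscle genes. The median absolute difference between the log2 changes of the 2 pairs was 0.72 over 11 cardiac genes, 0.30 over 14 shared genes, 0.31 over 12 skeletal genes and 0.17 over 11803 genes. The largest for a cardiac gene was that of *Mybpc3*, 2.47. The cardiac genes had head signals below the array median in most cases.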
